A study of Arabidopsis thaliana with 12 samples.

Results

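AT4G29020 and AT4G29030 are protein-coding genes that follow each other directly in the gene order of Arabidopsis thaliana chromosome 4. They were selected because the signal of both was high in young Col-0 rosettes, much lower in older ones, and less reduced in older rosettes that carry an RNA interference construct against SPH1. Each of the 2 genes had 1 probe set listed with exactly 1 gene (253754_at for AT4G29020 and 253753_at for AT4G29030), out of 22810 probe sets on the array. All 4 groups of arrays entered that choice, so the levels and changes of both genes are given as a description and without a test. Tests are given for their neighbours on the chromosome and for other gene lists.

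Leaf RNA was hybridised to 12 Affymetrix ATH1 arrays, in 4 groups of 3. SPH1 RNAi plants, which are Col-0 with an RNAi construct in SPH1, were sampled at growth stages 1.14 and 1.05, and Col-0 plants without the construct at the same stages. All plants grew in a greenhouse on John Innes compost with perlite, at 20 °C, 80% humidity and a 16 h photoperiod after cold stratification. The labels also give a treatment called Intersept for every plant. Each sample pooled 40 plants. The labels do not say whether the RNAi plants came from 1 line, nor which promoter drives the construct.

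A rosette is built leaf by leaf at the shoot apex, and the growth stages used here count the leaves that have emerged. A young leaf is rich in dividing and expanding cells, while an older rosette holds a growing share of fully expanded leaves that export sugar and later senesce. Transcripts of growing tissue therefore usually make up less of the RNA of a whole rosette as it gets older. RNA interference lowers a chosen transcript by means of double-stranded RNA that matches it. SPH1 is one of the S-protein homologues, a family of small secreted plant proteins related to the stigma protein that rejects self pollen in poppy. No symbol or function was listed for AT4G29020 or AT4G29030 in the gene list used here. A list of other glycine-rich protein genes was included as if the pair belonged to that class, which the gene list does not state.

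The arrays had an average background of 68.5 to 136.5 and a median signal of 37.8 to 48.3. SPH1 had 0 listed probe sets, which leaves its knockdown unchecked. Replicate 1 of SPH1 RNAi at stage 1.14 was unlike the rest of that group: it correlated across probe sets with the other arrays at 0.894 and 0.904, against 0.969 between those. The titles mark replicates 2 and 3 of the same group as repeats, and replicate 3 lacks the RNAi tag of its group and was placed by its source name. Rubisco activase (RCA), the 1 of 10 leaf mesophyll markers with a listed probe set, had a signal of 2798 to 5230 on all 12 arrays. Arrays of leaf RNA from pooled plants cannot tell fewer cells of a type from less RNA per cell.

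In older rosettes AT4G29030 was close to the dim end of the array in Col-0 but stayed at a clear signal in SPH1 RNAi. Its signal in SPH1 RNAi at stage 1.14 was 587.2, 206.8 and 406.5 on replicates 1 to 3, with a mean of 400.2 ± 190.3 (SD, n = 3). In SPH1 RNAi at stage 1.05 it was 808.7, 572.7 and 722.4, with a mean of 701 ± 119. The stages touched in SPH1 RNAi, because replicate 1 of stage 1.14 lay above replicate 2 of stage 1.05. The Col-0 arrays of stage 1.14 gave 29.5, 16.5 and 27.9 (24.6 ± 7.1, SD, n = 3), and those of stage 1.05 gave 788.7, 729.2 and 808.5 (775 ± 41). Every stage 1.14 array of Col-0 was under the mean of 32 that a probe set needed to be tested, while every other array of the study was above 200.

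In young rosettes the mean signal of AT4G29030 in SPH1 RNAi was 0.904 times that of Col-0, and the arrays of the genotypes overlapped. At stage 1.14 the genotypes were far apart: the lowest SPH1 RNAi array, at 206.8, was above the highest Col-0 array, at 29.5. Older SPH1 RNAi rosettes held 57.1% of the stage 1.05 signal, against 3.18% in Col-0.

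AT4G29020 behaved differently from its neighbour in young rosettes. In SPH1 RNAi at stage 1.14 its signal was 782.9, 466.4 and 350.6 on replicates 1 to 3 (533 ± 224, SD, n = 3), and at stage 1.05 it was 902.4, 792.9 and 1420.0 (1038 ± 335). The Col-0 arrays gave 387.6, 102.4 and 346.7 at stage 1.14 (279 ± 154), and 2021.0, 2170.5 and 2232.2 at stage 1.05 (2141 ± 109). The young SPH1 RNAi arrays thus all lay under the young Col-0 arrays, with a mean signal 0.485 times that of Col-0. In older rosettes the mean was 1.91 times that of Col-0, but the arrays overlapped, because SPH1 RNAi replicate 3 was below Col-0 replicate 1. Older SPH1 RNAi rosettes held 51.4% of the stage 1.05 signal, against 13.0% in Col-0.

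**Figure D1:**
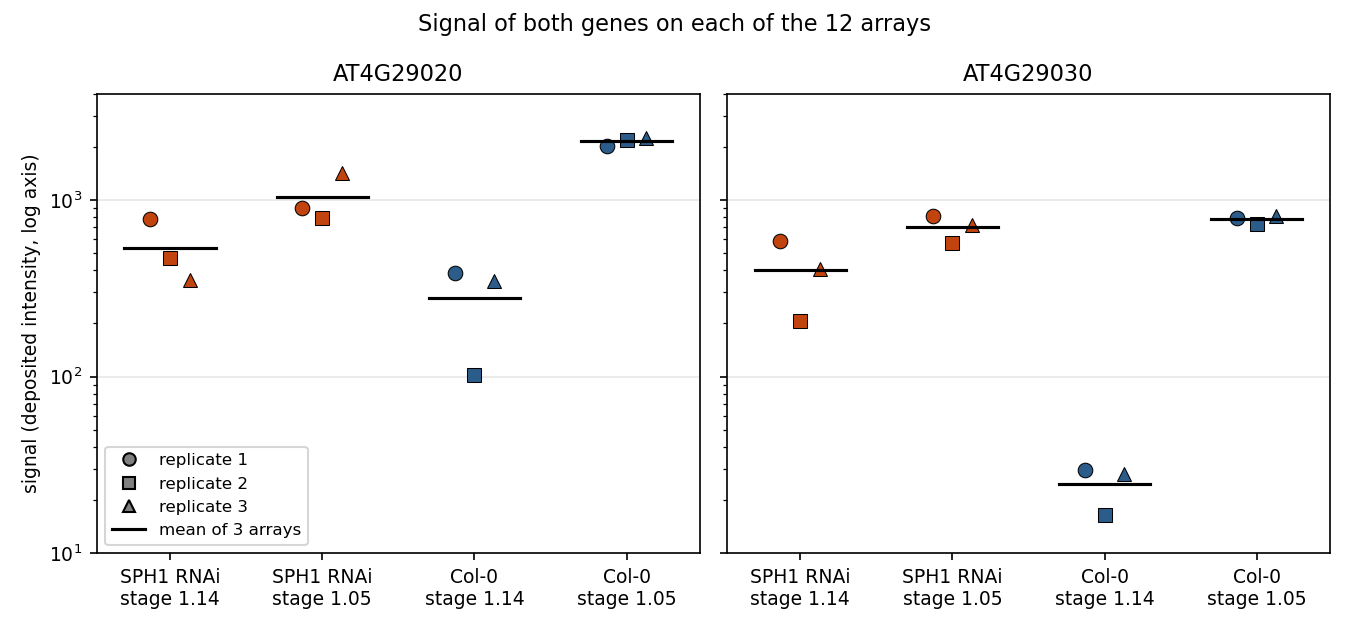
Signal of AT4G29020 (left) and AT4G29030 (right) on each of the 12 arrays, on a log axis in the deposited intensity, by group; marker shapes give the replicate and lines the mean of 3 arrays. AT4G29030 in Col-0 at stage 1.14 lies at 16.5 to 29.5, apart from all other arrays, while the older SPH1 RNAi and Col-0 arrays of AT4G29020 overlap.

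The groups did not overlap between stages in Col-0 for both of the 2 genes, as in 58.6% of the 13263 probe sets tested. In SPH1 RNAi the stages did not overlap for AT4G29020 alone, where 29.6% of all tested probe sets did not. Between the genotypes, the groups did not overlap for AT4G29020 at stage 1.05 (27.6% of all tested) and for AT4G29030 at stage 1.14 (28.2% of all tested). Nothing is read from these counts, since the same arrays chose the genes.

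The order of the 4 group means was the same in both genes, but the gaps lay in different places. AT4G29030 was highest in Col-0 at stage 1.05, then in SPH1 RNAi at stage 1.05, then in SPH1 RNAi at stage 1.14, and lowest in Col-0 at stage 1.14. Its neighbouring groups in that order overlapped at the top and between the SPH1 RNAi stages, so a gap was seen only above the older Col-0 arrays. In AT4G29020 the gaps lay under young Col-0 and, narrowly, between the SPH1 RNAi stages (782.9 against 792.9), while its lowest groups overlapped.

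Log2 changes were taken from a limma model of log2(signal + 16) with 4 group means, so they understate the change of dim values. With stage in SPH1 RNAi, AT4G29030 had a log2 change of -0.89 ± 0.29 (SE) and AT4G29020 one of -0.97 ± 0.41. With stage in Col-0 the log2 changes were -4.30 ± 0.29 for AT4G29030 and -3.06 ± 0.41 for AT4G29020. The genes were thus close in their stage change in SPH1 RNAi and apart in Col-0. The gap in Col-0 depended on the offset. With an offset of 64 the changes there were -3.25 ± 0.25 (SE) for AT4G29030 and -2.81 ± 0.36 for AT4G29020. An offset of 1 gave -4.96 ± 0.32 and -3.15 ± 0.44. In SPH1 RNAi the stage change was 20.6% of that in Col-0 for AT4G29030 and 31.8% for AT4G29020, on the log2 scale. Such a share depended on the weighting and on the arrays kept, as given below for AT4G29020. Since only 2 stages were sampled, a later loss and a smaller loss cannot be told apart.

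Between the genotypes at stage 1.14, AT4G29030 was 9.56-fold higher in SPH1 RNAi on the scale of the signal plus 16 (log2 change 3.26 ± 0.29 SE). AT4G29020 had a log2 change of 1.01 ± 0.41 there. At stage 1.05 the log2 changes were -0.15 ± 0.29 for AT4G29030 and -1.08 ± 0.41 for AT4G29020. The interaction, which is the stage change in SPH1 RNAi minus that in Col-0, was 3.41 ± 0.41 for AT4G29030 and 2.09 ± 0.58 for AT4G29020. The interaction of AT4G29030 came almost wholly from the older rosettes, whereas that of AT4G29020 was made up of a lower level at stage 1.05 and a higher mean at stage 1.14. The sizes of these components, -1.08 and 1.01, depended on the arrays: they were -0.95 and 0.29 with array quality weights, and -1.08 and 1.63 with the repeats of SPH1 RNAi at stage 1.14 left out. Without Col-0 at stage 1.14 replicate 2, the dimmest array of its group for both genes, the genotype log2 change of AT4G29020 at stage 1.14 was 0.45, beside an unchanged -1.08 at stage 1.05. It was 0.70 without SPH1 RNAi replicate 1, the array that stood apart, and that of AT4G29030 was then 2.93. The stage change of AT4G29030 in SPH1 RNAi was -0.49 without replicate 2 of stage 1.14.

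**Figure D2:**
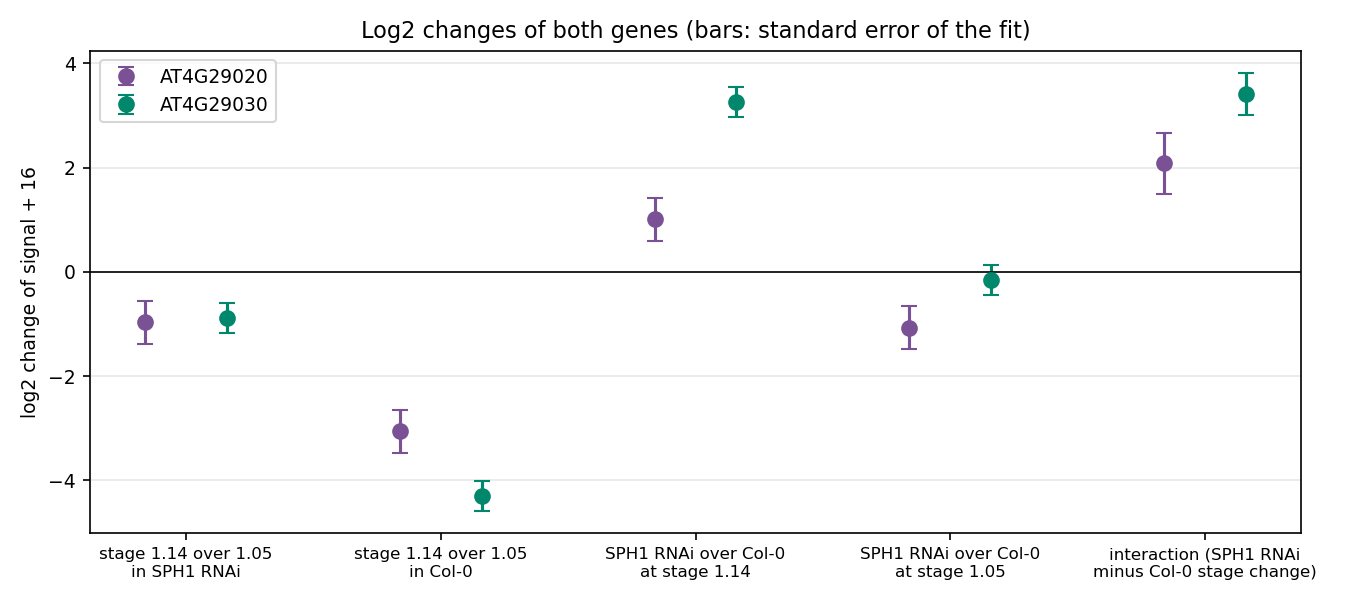
Log2 change of the signal plus 16 (vertical axis) of AT4G29020 and AT4G29030 in 5 comparisons, with bars for the standard error of the fit over 12 arrays. The genes lie together for stage in SPH1 RNAi, at -0.97 and -0.89, and apart at stage 1.14, at 1.01 and 3.26.

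The 2 genes did not keep a fixed ratio within arrays. The log2 ratio of AT4G29030 to AT4G29020, set to 0 at its mean in Col-0 at stage 1.05, was 1.04, 0.33 and 1.65 in SPH1 RNAi at stage 1.14 and 1.29, 0.99 and 0.49 in SPH1 RNAi at stage 1.05. In Col-0 it was -1.70, -0.42 and -1.60 at stage 1.14, and within 0.11 of 0 on each array at stage 1.05. All 6 SPH1 RNAi arrays therefore lay above all 6 Col-0 arrays in this ratio. Nothing is read from that, since the same arrays chose the genes and no other pairs of probe sets were compared. In older Col-0 the size of the ratio depends on the offset of 16, because AT4G29030 was at 16.5 to 29.5 there. The ratio describes unequal changes and does not show that either gene stayed the same. Within groups, the array with the highest signal was the same for both genes in 3 of the 4 groups, and the one with the lowest signal in 2 of the 4.

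Seen against all tested probe sets, the loss of AT4G29030 with stage in Col-0 ranked 2 from the low end of 13263 and that of AT4G29020 ranked 18. In the interaction AT4G29030 ranked 2 from the top and AT4G29020 ranked 21. In Col-0, 23 tested probe sets had a signal plus 16 at least 8-fold lower at stage 1.14, both genes among them. The 21 others had a median log2 stage change of -2.03 in SPH1 RNAi, against -3.23 in Col-0. They were picked by their loss in Col-0, so a smaller loss in the other genotype was partly fixed by that choice. No set picked by its loss in SPH1 RNAi was compared. The SPH1 RNAi change of the 21 was 57.8% of the Col-0 change at the median, where AT4G29020 had 31.8% and AT4G29030 20.6%. The share of AT4G29020 was not firm. With array quality weights its stage change was -1.41 in SPH1 RNAi and -2.65 in Col-0. It was -1.28 and -3.06 without SPH1 RNAi at stage 1.14 replicate 1, and -0.36 and -3.06 with the repeats left out. Of the 21, 1 had a larger interaction than AT4G29030 and 5 had a larger one than AT4G29020. At stage 1.05 the median genotype difference of the 21 was -0.67, and 5 of them were further below Col-0 than AT4G29020. These ranks describe genes that were chosen for their rank.

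**Figure D3:**
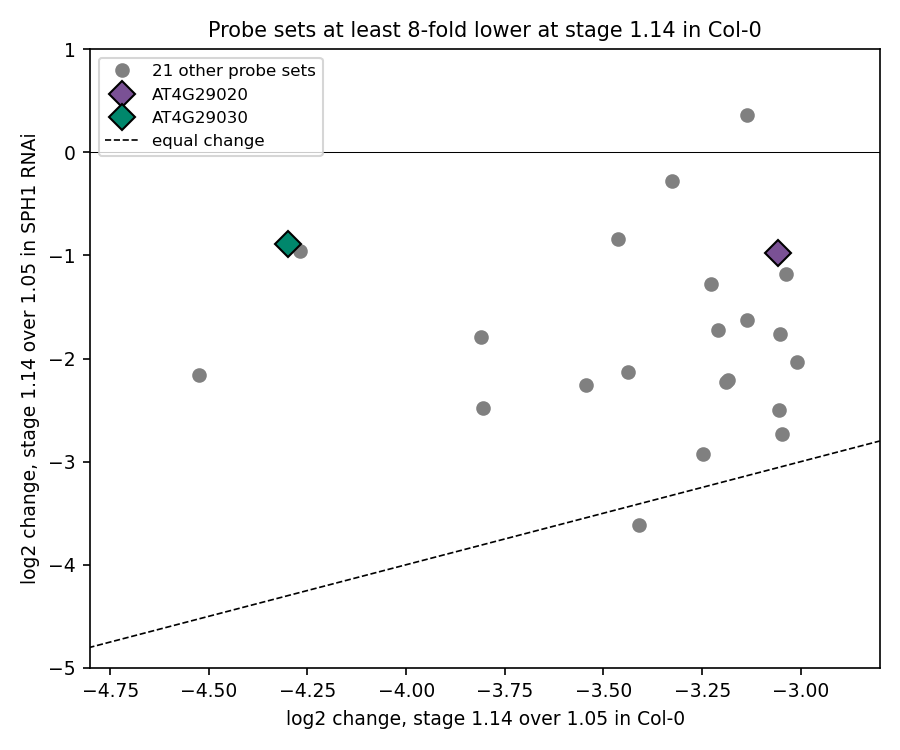
Log2 stage change in SPH1 RNAi (vertical axis) against that in Col-0 (horizontal axis) for the 23 tested probe sets at least 8-fold lower at stage 1.14 in Col-0. AT4G29030 (-4.30 in Col-0) and AT4G29020 (-3.06) lie well above the line of equal change, at -0.89 and -0.97 in SPH1 RNAi, and 20 of the 21 others also lie above it. All were picked by their change in Col-0, which favours places above the line.

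The neighbourhood on the chromosome asks whether the pattern reached the genes on either side. Of the 20 nearest loci, 10 on each side, 8 had a listed probe set and 5 reached the signal for a test. Of these 5, AIM1 rose with stage in Col-0 and 4 did not pass, against 44.6% of all tested probe sets called in either direction. In SPH1 RNAi AIM1 rose as well and 4 did not pass (10.2% of all tested). Between the genotypes, 0 of 5 passed at stage 1.05 (5.33% of all tested), 0 at stage 1.14 (6.76%) and 0 in the interaction (3.36%). At an unadjusted limma p under 0.05, 2658 probe sets of all 13263 differed between the genotypes at stage 1.05, 3087 at stage 1.14 and 2632 in the interaction. The neighbours were not counted at that threshold, so 0 of 5 is not to be set beside these numbers. Between the genotypes at stage 1.05 AIM1 had a log2 change of 0.47 ± 0.14 (SE, limma adjusted p = 0.0794). The median log2 change of the 5 was 0.09 with stage in Col-0 and -0.09 between the genotypes at stage 1.14, against 0.02 and 0.04 over all tested probe sets.

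AIM1 is the immediate neighbour of AT4G29020 and encodes a multifunctional enzyme of fatty acid beta-oxidation in peroxisomes. It moved with stage in the opposite direction to the pair. Its signal in SPH1 RNAi was 406.1, 429.4 and 410.4 at stage 1.14 and 217.9, 299.4 and 294.5 at stage 1.05 (log2 change 0.60 ± 0.14 SE, limma adjusted p = 0.0204). The Col-0 signal was 484.8, 487.0 and 491.1 at stage 1.14 and 194.9, 174.2 and 200.5 at stage 1.05 (log2 change 1.29 ± 0.14, limma adjusted p = 2.4e-05). The stages did not overlap in SPH1 RNAi (as in 29.6% of all tested probe sets) or in Col-0 (58.6%). At stage 1.14 all SPH1 RNAi arrays lay under all Col-0 arrays, where 28.2% of all tested probe sets did not overlap. That genotype difference did not pass (log2 change -0.22 ± 0.14, limma adjusted p = 0.363). The rise in SPH1 RNAi did not pass without stage 1.05 replicate 1 of that genotype (log2 change 0.46, adjusted p = 0.0662), nor with the 2 repeats of stage 1.14 left out (0.57, adjusted p = 0.0763). The difference between the genotypes in the stage change of AIM1 did not pass (interaction -0.69 ± 0.20, limma adjusted p = 0.0789). Without that same array 1 of the 5 neighbours passed in the interaction and 1 between the genotypes at stage 1.05.

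The other 4 tested neighbours were not called in any of the 5 comparisons. AT4G28990 fell without overlap in Col-0, from 69.5 to 77.3 at stage 1.05 to 52.1 to 61.9 at stage 1.14 (limma adjusted p = 0.123). Its SPH1 RNAi arrays of stage 1.14, at 64.2 to 98.4, lay above those of Col-0 and overlapped with SPH1 RNAi at stage 1.05. Such groups did not overlap in 58.6% of all tested probe sets for stage in Col-0 and 28.2% for genotype at stage 1.14. AT4G28990 had mean signals of 79.6 ± 17.4 in SPH1 RNAi and 58.2 ± 5.3 in Col-0 at stage 1.14 (SD, n = 3; log2 change 0.35 ± 0.14, limma adjusted p = 0.141). AT4G29070, the nearest tested gene beyond AT4G29030, had 331 ± 84 in SPH1 RNAi and 354 ± 67 in Col-0 at that stage (adjusted p = 0.811). The 6 loci between AT4G29030 and AT4G29070 had no listed probe set and were not analysed here.

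**Figure D4:**
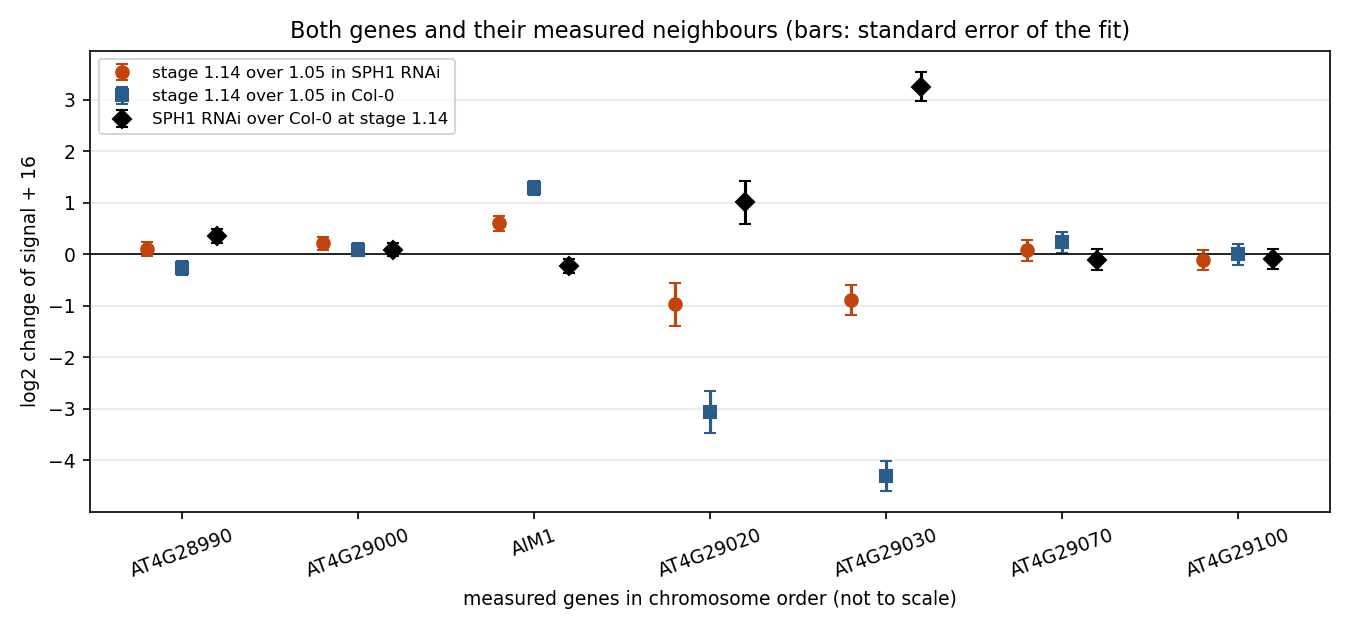
Log2 changes of the signal plus 16 for AT4G29020, AT4G29030 and the 5 tested genes within 10 loci on either side, in chromosome order and not to scale, with bars for the standard error of the fit. With stage in Col-0 the pair lies at -3.06 and -4.30, next to 1.29 in AIM1, and the other 4 genes stay near 0.

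The genes of most similar pattern were sought among the 7093 other tested probe sets with exactly 1 gene, by the root-mean-square difference of their centred log2(signal + 16) values over the 12 arrays from the mean of the pair. The 8 nearest were AT5G45670, AT2G33850, AT4G38660, PYK10, AT1G23410, AT3G54400, AT4G22490 and ARPN, at differences of 0.44 to 0.60 log2 units, against a median of 1.46 over all 7093. They lie on chromosomes 1, 2, 3, 4 and 5. Between AT4G29020 and AT4G29030 themselves the difference was 1.00. Seen from AT4G29030, AT4G29020 ranked 23, and seen from AT4G29020, AT4G29030 ranked 697. Which genes were nearest depended on the measure. With 1 minus Pearson's r, which compares the shape of a profile and not its size, 0 of the 8 were kept. The nearest were then AT3G11510, AT4G16720, AT3G16780, AT3G52580, AT2G32060, AT3G07110, AT3G44590 and AT5G27850. An offset of 64 kept 3 of the 8.

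AT5G45670, the nearest, had mean signals of 129 ± 50 in SPH1 RNAi at stage 1.14 and 193 ± 47 at stage 1.05, while the Col-0 means were 20.8 ± 14.7 at stage 1.14 and 196 ± 43 at stage 1.05 (SD, n = 3). ARPN, a plantacyanin and thus a small blue copper protein, had 120 ± 65 and 153 ± 27 in SPH1 RNAi and 27.7 ± 5.5 and 184 ± 19 in Col-0, at stages 1.14 and 1.05. In both genes the older Col-0 arrays lay below all others, as in AT4G29030. These 8 were picked for their likeness on the same arrays, so no test is given for them.

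PYK10, a beta-glucosidase of endoplasmic reticulum bodies that is abundant in roots, was the 1 of 8 root markers with a listed probe set. It was also 1 of the 8 genes picked above for their likeness to the pair, so that it moved with the pair was fixed by that choice. Its signal in SPH1 RNAi was 355.2, 39.4 and 61.3 at stage 1.14 and 288.4 to 530.6 at stage 1.05. The Col-0 range was 14.2 to 21.4 at stage 1.14 and 339.4 to 568.4 at stage 1.05. Replicate 1 of SPH1 RNAi at stage 1.14 was the highest of its group in PYK10 and in both genes. On replicates 2 and 3 its signal was lower than on replicate 1 and above all Col-0 arrays of that stage. Of the shoot meristem markers 1 of 5 had a listed probe set, CLV3, at 1.3 to 4.2 on all arrays, and of 6 flower markers 0 had one. An RNA quality measure had a lower mean at stage 1.14: actin signal from 3′ probes over that from 5′ probes, as a log2 ratio, was 2.01 ± 0.48 in SPH1 RNAi at stage 1.14 and 2.78 ± 0.64 at stage 1.05 (SD, n = 3, exact permutation p = 0.3). In Col-0 it was 1.88 ± 0.24 and 2.65 ± 0.38 (two-sided exact permutation p = 0.1, the lowest possible with 3 arrays in each group). Average background at stage 1.05 was 72.8 in SPH1 RNAi and 106.9 in Col-0 (exact permutation p = 0.1). The part of these measures in the levels of the pair was not tested.

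Lists of other genes of growing and ageing leaves show what else moved with stage on these arrays. Of all tested probe sets, 5.78% were called higher and 4.46% lower with stage in SPH1 RNAi, and 23.7% higher and 21% lower with stage in Col-0. Between the genotypes 4.57% were called higher and 0.762% lower in SPH1 RNAi at stage 1.05, and 4.7% higher and 2.06% lower at stage 1.14. In the interaction 1.48% were called above 0 and 1.88% below. Of 14 cell division and DNA replication genes 3 had a listed probe set, the Aurora kinases AUR1 and AUR2, which act at mitosis, and PRL, a subunit of the replication helicase. All 3 fell with stage in Col-0 and 0 passed in SPH1 RNAi, with median log2 changes of -0.22 in SPH1 RNAi and -1.21 in Col-0. PRL had mean signals of 99.4 ± 18.2 and 118 ± 19 in SPH1 RNAi and 49.5 ± 12.1 and 140 ± 28 in Col-0, at stages 1.14 and 1.05 (SD, n = 3; limma adjusted p = 0.479 and 0.000236 for the stage changes). At stage 1.14 PRL was higher in SPH1 RNAi (log2 change 0.82 ± 0.19, limma adjusted p = 0.0249), and AUR1 and AUR2 did not pass there. That call was lost without SPH1 RNAi replicate 1 or 3 or Col-0 replicate 2 or 3 of that stage, and without SPH1 RNAi replicate 2 all 3 genes were called. The median interaction of the 3 was 0.88, against 3.41 in AT4G29030 and 2.09 in AT4G29020. The pair was chosen for this difference, so high values in it were fixed by that choice. None of the 3 cell division and DNA replication genes passed in the interaction. That count of 0 was not firm: 3 passed with array quality weights, 2 with the repeats left out, 2 without SPH1 RNAi at stage 1.14 replicate 2, and 1 with quantile normalization.

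Among expansins and xyloglucan endotransglucosylases, enzymes and proteins that loosen the wall of growing cells, 3 of 13 were listed and tested. XTH16 fell with stage in Col-0 (33.5 ± 18.8 in older and 109 ± 42 in younger rosettes, SD, n = 3; limma adjusted p = 0.00990). With stage in Col-0 EXPA4 had a log2 change of -0.71 ± 0.32 (SE) and EXPA8 one of 1.02 ± 0.42, in the opposite direction, and neither passed. For the other 4 comparisons 0 of the 3 passed. The interaction was -1.03 ± 0.59 in EXPA8, against 1.14 ± 0.45 in EXPA4 and 0.78 ± 0.53 in XTH16. The median interaction of the list was 0.78, and leaving out replicate 1 of SPH1 RNAi at stage 1.14 gave 0.36. Counting both directions, all 3 were then called with stage in Col-0. The count was 2 without replicate 2 of SPH1 RNAi at stage 1.14, Col-0 at stage 1.05 replicate 1 or Col-0 at stage 1.14 replicate 2. With the repeats left out, 3 were called between the genotypes at stage 1.14, 1 in the interaction and 1 with stage in SPH1 RNAi; with a replicate block, or without replicate 2 of SPH1 RNAi at stage 1.14, 1 was called between the genotypes at that stage. The median interaction was 1.64 with the repeats left out, and 0.22 with array quality weights.

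In the leaf senescence list 3 of 7 genes were listed and tested. With stage in Col-0 the transcription factor WRKY53 and the lipase-like regulator SAG101 rose and the sugar transporter SAG29 fell. In SPH1 RNAi WRKY53 rose and the other 2 did not pass. At stage 1.05 WRKY53 was higher in SPH1 RNAi, at 60.5 ± 13.9 against 18.1 ± 3.6 in Col-0 (mean signal ± SD, n = 3; limma adjusted p = 0.0134), a call that was lost with an offset of 64 (log2 change 0.60, adjusted p = 0.0634) and without SPH1 RNAi replicate 2 or Col-0 replicate 3 of that stage. Its rise in SPH1 RNAi was lost without stage 1.05 replicate 3. SAG29, like AT4G29020, was lower in young SPH1 RNAi rosettes, at 27.6 ± 19 against 119.7 ± 23.8 in Col-0 (limma adjusted p = 0.0381, a call lost under 8 of 19 alternatives), and higher at the mean in older ones, at 45.5 ± 40.5 against 13.6 ± 5.3 (adjusted p = 0.271).

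Of 15 glycine-rich protein genes 7 were listed and 2 reached the signal for a test. AT1G04800 fell with stage in Col-0 (45.2 ± 15.0 in older and 111 ± 57 in younger rosettes, SD, n = 3; limma adjusted p = 0.0225), and AT4G30450 did not pass. That call was lost without Col-0 replicate 2 or 3 of stage 1.05 or replicate 1 or 2 of stage 1.14. Neither passed in the other 4 comparisons, but without Col-0 at stage 1.05 replicate 1 both passed with stage in Col-0, 1 passed with stage in SPH1 RNAi and 1 between the genotypes at stage 1.05. Of 10 leaf growth regulators and 12 epidermis and cuticle genes, 0 had a listed probe set, so these lists were not analysed here.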

How the data were processed

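The authors deposited a table of linear intensity values, 22810 probe sets by 12 arrays. After trimming, the mean of every array was about 100.01, so the arrays had been scaled before deposit; the labels and headers name no software for this. Samples were grouped by the source names. Control probe sets (64) were left out, and the 13263 probe sets with a mean of at least 32 were tested as log2(signal + 16) in 1 limma 3.58.1 fit (R 4.3.3; lmFit, and eBayes with an intensity trend; 8 residual degrees of freedom), with Benjamini-Hochberg adjustment over all of them and a threshold of 0.05. Since nothing ties the arrays to separate growths beyond the pools, p-values reflect only the spread between them, which may be technical. The number of arrays limits the precision.

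Genes were named through the platform's probe list, and symbols and gene order came from the TAIR10.1 gene list; no build is named for the array, so no coordinates are printed. Of the tested probe sets, 7095 had exactly 1 gene and 5901 were unnamed here.

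The genes, lists, tests and alternatives were chosen with earlier results of these data known. Named genes were the pair, tested neighbours within 10 loci, the 8 nearest profiles, and up to 4 members of each of 6 lists with the largest interaction or Col-0 stage change. The fit was tested on simulated data. Alternatives covered the offset, quantile normalization, the filter, a replicate block, array weights, the repeated arrays and each array left out. The replicate numbers were checked for pairing: deviations from the group means correlated between -0.25 and 0.49 over 18 pairs of arrays with the same number.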

Additional observations from a re-analysis of the deposited data

Results flagged for a closer look

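SAG29, a sugar transporter of the leaf senescence list, is listed because its stage change differed between the genotypes in the test of the interaction (2.59 ± 0.62 SE, limma adjusted p = 0.0425). Its log2 stage change was 0.39 ± 0.44 in SPH1 RNAi and -2.20 ± 0.44 in Col-0. The call was lost under 12 of the 19 alternatives, and adjusted p ranged from 0.00503 to 0.101 over all 19.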

How the results depend on the processing

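Of 190 values of the pair recomputed under 19 alternatives, 176 moved by less than the spread between replicates, 14 moved by more and 0 changed sign. Many of the 190 could not move. The filter and the replicate block do not enter the estimates, and leaving out arrays of a group does not touch changes between other groups. The count is thus no measure of stability. A move below the spread could also be large: AT4G29020 between the genotypes at stage 1.14 went from 1.01 to 0.45 without Col-0 replicate 2. For AT4G29030, an offset of 1 gave -4.96 for stage in Col-0, 3.89 for genotype at stage 1.14 and 4.04 for the interaction, and an offset of 64 gave -3.25, 2.30 and 2.45; a larger offset shrinks the change of dim values by construction. Array quality weights gave AT4G29020 0.29 for genotype at stage 1.14 and 1.24 for the interaction. With the 2 repeated hybridisations left out, the lone array of SPH1 RNAi at stage 1.14 is the one that stood apart and is assumed to vary like the other groups. AT4G29020 then had -0.36 for stage in SPH1 RNAi, 1.63 for genotype at stage 1.14 and 2.70 for the interaction, and AT4G29030 -0.24, 3.91 and 4.06. The causes of the last 2 sets were not tested. Leaving out 1 array at a time, the genotype change at stage 1.14 was 0.45 to 1.33 in AT4G29020 and 2.93 to 3.65 in AT4G29030, and the interaction 1.52 to 2.41 and 3.09 to 3.81.

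Calls over all probe sets for genotype at stage 1.05, genotype at stage 1.14 and the interaction numbered 707, 896 and 446, and 1753, 3345 and 2137 with array quality weights; the interaction had 236 without the filter. With the repeated hybridisations left out, stage in SPH1 RNAi had 2152 calls in place of 1358, genotype at stage 1.14 1762 and the interaction 856. Leaving out 1 array gave 669 to 1501 for stage in SPH1 RNAi, 365 to 1060 and 376 to 1102 for genotype at stages 1.05 and 1.14, and 119 to 705 for the interaction. A single array that moved such a count by over 1.5 times was, for stage in SPH1 RNAi, replicate 1 or 3 of SPH1 RNAi at stage 1.05; for genotype at stage 1.05, replicate 2 or 3 of either genotype at that stage; for genotype at stage 1.14, SPH1 RNAi replicate 3 or any Col-0 array of that stage; and for the interaction 8 of the 12 arrays. The replicate numbers are not a pairing in the labels, and 5 of 12 arrays correlated best with their own number. A replicate block gave 731, 998 and 523 calls for the 2 genotype comparisons and the interaction and left the changes of the pair as they were. Of the 8 genes of like pattern, 0 were kept with Pearson's r, 3 with an offset of 64, 4 without SPH1 RNAi at stage 1.14 replicate 1 and, chosen after seeing the data, 4 each with the profile of AT4G29030 or AT4G29020 alone. Of the 5 neighbours, 2 were called for stage in Col-0 with quantile normalization or array quality weights, 1 each for genotype at stage 1.05 and the interaction with array quality weights, and, with the repeated hybridisations left out, 1 for genotype at stage 1.14 and 0 for stage in SPH1 RNAi. Array quality weights also called 2 of the 3 senescence genes for genotype at stage 1.14.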

Other observations

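Another directly adjacent pair stood among the large losses in Col-0, and its members also differed from each other. AT1G62500 and AT1G62510, with 0 loci between them on chromosome 1, had log2 stage changes of -3.14 and -3.05 in Col-0. In SPH1 RNAi they had 0.36 ± 0.56 (SE) and -1.77 ± 0.29. This pair was singled out after its values were seen, and no test is given for it.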
